A study of Mus musculus with 223 samples.

Results

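The nuclear-encoded oxidative phosphorylation (OXPHOS) genes are the genes of the cell nucleus that code for the respiratory chain and the ATP synthase of mitochondria. Members were the protein-coding mouse genes whose symbol begins with Ndufa, Ndufb, Ndufc, Ndufs, Ndufv, Uqcr, Cox4 to Cox8, Atp5 or Sdha to Sdhd, without the Ndufaf assembly factors and without pseudogenes. The rule uses names and no measured value, but this group of genes was chosen with earlier results of these data known. Of the 43629 genes with deposited counts, 89 are members. They fall into complex I with 38 genes, complex II with 8, complex III with 8, complex IV with 18 and complex V with 17. The name pattern also takes in 5 genes that are not subunits, namely Sdhaf1, Sdhaf2, Sdhaf3 and Sdhaf4, which help to assemble complex II, and Atp5s, a factor associated with the ATP synthase. The other 84 were counted as subunits. The members lie on 19 chromosomes, with 10 on chromosome 7 and 3, namely Cox7b, Ndufa1 and Ndufb11, on the X chromosome.

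Complexes I, III and IV pass electrons from NADH to oxygen and pump protons across the inner mitochondrial membrane, complex II feeds electrons from succinate without pumping, and complex V uses the proton gradient to make ATP. Complexes I, III, IV and V also hold subunits that are coded by the mitochondrial genome, whereas all 4 subunits of complex II are nuclear. Neurons depend on this pathway for most of their ATP, and transcription factors such as NRF1, GABPA, YY1 and the estrogen-related receptors (ERR) are known to act on many of its promoters.

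The series holds single cells from the whole cortex of Htr3a-GFP mice, in which GFP is driven by the promoter of the serotonin receptor gene Htr3a, sorted by FACS for GFP and captured on a microfluidic chip. Every group carries this transgene. The 82 cells at E18 have no type. Of the 66 cells at P2, types 1, 2 and 3 hold 22, 31 and 13, and of the 75 cells at P5 they hold 34, 19 and 22. The types are the authors' own and were drawn from these same counts. Brains of each age were pooled and no label names the animal of a cell, so each group is 1 sample, no test was possible and no p-value is given. E18 and P2 cortices were dissociated in warm Pronase and P5 cortices in Pronase at room temperature, so age and dissociation cannot be told apart. All P2 cells carry the number 353 at the head of their label and no other cell does, so P2 and that number cannot be told apart either. E18 and P5 cells carry 383, 392 or 393.

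Values are given as RPM, read pairs per 1000000 mapped read pairs, pooled over the cells of a group, with exact 95% Poisson intervals that cover counting error only. Mapped read pairs per cell ranged from 3707601 to 15840130, and between 34.1% (type 3 INs at P5) and 60.8% (type 2 INs at P5) of a group's mapped read pairs lay on genes. At E18 it was 59.2%. Because this share was so low in type 3 INs at P5, the main sums and counts on them are also given relative to read pairs on genes. The interneuron genes Dlx1, Dlx2, Dlx5, Dlx6, Gad1 and Gad2 summed to between 507 RPM (type 2 INs at P2) and 1324 RPM (type 1 INs at P5). At least 3 markers of another cell type exceeded 10 RPM in 26 of the 82 E18 cells, in 3 type 2 cells at P2 and in 4 type 2 cells at P5, and in none of the other groups.

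Promoter sequences of RefSeq (GRCm38.p6, 250 bases before to 50 bases after the annotated start) were found for 71 of the 89 members. They are shown because these genes lie apart in the genome and share known regulators. The letters searched on both strands were GCATGCGC for NRF1, CCGGAAG for GABPA, AAGATGGCG for YY1, AAGGTCA for ERR, GGGCGG for SP1 and TATAAA for a TATA box. The NRF1 letters overlap their own reverse complement. Of the 71 members, 10 had the NRF1 letters (14.1%, against 3.05% of all 27025 genes with a promoter), 19 the GABPA letters (26.8% against 9.93%), 7 the YY1 letters (9.86% against 1.64%) and 8 the ERR letters (11.3% against 5.38%). At least 1 of these 4 was in 34 members (47.9%), against 18.4% of all genes. The SP1 letters (43.7% against 38.2%) and the TATA letters (11.3% against 15.7%) are given beside these for comparison. The median GC content was 57.7% for member promoters and 52.7% for all promoters. A match is a description of the letters and not evidence of binding, and no factor was measured here. Capitals mark the NRF1, GABPA, YY1, ERR or TATA letters in the promoters of 5 members that return in the results, of complex IV (Cox6a1, chr5:115348909-115349208, minus strand), complex II (Sdhb, chr4:140961021-140961320, plus strand, and Sdhd, chr9:50603800-50604099, minus strand), complex III (Uqcrc1, chr9:108936398-108936697, plus strand) and complex I (Ndufa11, chr17:56717512-56717811, plus strand), and of Cox8b (chr7:140900397-140900696, minus strand), an isoform of heart and muscle.
Cox6a1: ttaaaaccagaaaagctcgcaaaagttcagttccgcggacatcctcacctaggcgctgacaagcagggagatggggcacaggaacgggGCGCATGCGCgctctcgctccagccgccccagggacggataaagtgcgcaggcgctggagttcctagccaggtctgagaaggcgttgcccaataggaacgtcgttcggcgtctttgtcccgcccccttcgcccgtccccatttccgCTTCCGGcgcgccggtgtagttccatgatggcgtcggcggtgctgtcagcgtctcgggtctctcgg
Sdhb: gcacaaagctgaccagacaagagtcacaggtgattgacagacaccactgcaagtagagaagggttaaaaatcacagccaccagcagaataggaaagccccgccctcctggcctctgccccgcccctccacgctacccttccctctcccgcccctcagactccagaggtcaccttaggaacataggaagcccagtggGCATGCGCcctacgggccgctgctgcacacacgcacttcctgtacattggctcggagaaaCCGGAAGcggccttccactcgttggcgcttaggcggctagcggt
Sdhd: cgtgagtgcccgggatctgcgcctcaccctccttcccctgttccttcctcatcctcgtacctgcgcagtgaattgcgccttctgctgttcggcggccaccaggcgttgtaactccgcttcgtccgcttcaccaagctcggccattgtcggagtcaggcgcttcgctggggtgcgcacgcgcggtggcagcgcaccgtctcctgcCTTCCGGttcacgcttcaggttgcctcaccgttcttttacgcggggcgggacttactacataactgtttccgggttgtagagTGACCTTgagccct
Uqcrc1: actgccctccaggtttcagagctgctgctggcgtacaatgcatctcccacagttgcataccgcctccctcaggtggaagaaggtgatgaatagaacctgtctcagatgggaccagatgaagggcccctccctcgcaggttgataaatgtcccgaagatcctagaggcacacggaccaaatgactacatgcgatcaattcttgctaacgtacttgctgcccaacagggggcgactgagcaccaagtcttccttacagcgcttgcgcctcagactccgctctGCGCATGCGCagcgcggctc
Ndufa11: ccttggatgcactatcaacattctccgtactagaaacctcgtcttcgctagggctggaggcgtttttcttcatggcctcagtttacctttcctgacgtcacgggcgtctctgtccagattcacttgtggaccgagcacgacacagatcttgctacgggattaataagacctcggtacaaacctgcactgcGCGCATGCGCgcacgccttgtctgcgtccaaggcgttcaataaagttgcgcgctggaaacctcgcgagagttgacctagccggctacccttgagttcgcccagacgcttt
Cox8b: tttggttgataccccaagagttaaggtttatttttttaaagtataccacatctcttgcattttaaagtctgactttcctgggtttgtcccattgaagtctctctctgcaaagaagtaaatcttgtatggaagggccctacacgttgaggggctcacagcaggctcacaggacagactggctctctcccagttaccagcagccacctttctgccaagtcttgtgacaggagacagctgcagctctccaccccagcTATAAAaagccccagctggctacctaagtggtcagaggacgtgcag
The NRF1 letters begin 54 bases before the start of Sdhb, 60 before that of Ndufa11 and at base 31 after that of Uqcrc1. The GABPA letters begin 16 bases before the start of Cox6a1, 46 before that of Sdhd and at base 7 after that of Sdhb. Cox8b held none of the NRF1, GABPA, YY1 or ERR letters, and its TATA letters begin at base 5 after the annotated start.

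Per kilobase of annotated exon and over all cells, Cox6a1, a small subunit of complex IV, had the highest level of the members with 411 RPM per kb. The next was Atp5a1, the alpha subunit of the ATP synthase, with 111.6 RPM per kb, followed by its gamma subunit Atp5c1 with 109.96. Cox4i1, the common isoform of complex IV subunit 4, had 105.4 RPM per kb and Cox6b1 had 103.5. Cox6a1 thus stood well above the next members, which lay close together. Of the catalytic and core subunits, Atp5b (beta subunit of complex V) had 80.1, Uqcrc2 52.6, Sdhb 51.6, Uqcrc1 31.7, Sdha 21.2 and Ndufs1 9.22 RPM per kb. Exon length is the union of all annotated exons, from 360 to 8086 bases with a median of 1569, and the exons in use were not known. Atp5b and Ndufc1 were the members with at least 1 read pair in every cell, and Atp5b exceeded 10 RPM in more cells than any other member.

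**Figure D1:**
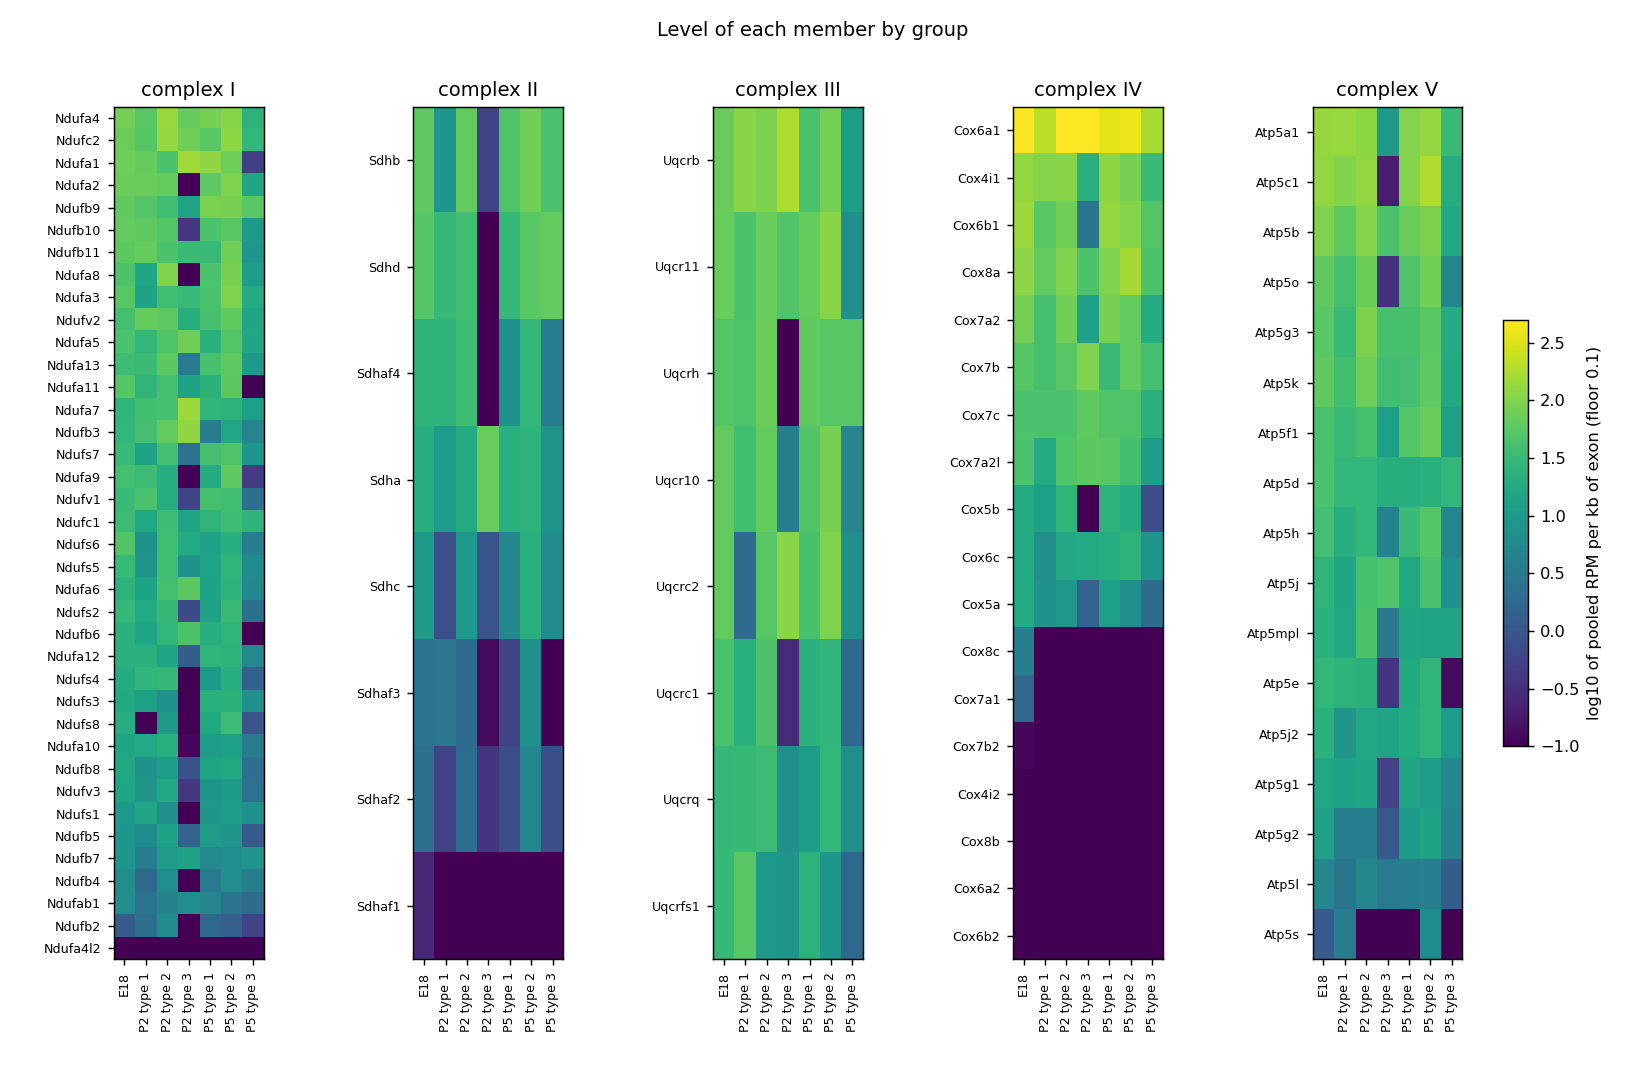
Pooled level of each of the 89 members (rows, by complex and in order of their level over all cells) in the 7 groups (columns), as log10 of RPM per kilobase of exon with a floor of 0.1. The tissue-restricted isoforms of complex IV are dark in every postnatal group, and at E18 Cox7a1 and Cox8c lie above the floor. The P2 type 3 and P5 type 3 columns hold dark cells in otherwise bright rows.

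Summed over all 89 members, transcripts made up 6003 RPM at E18 (5997 to 6008). At P5 the sum was 4864 RPM in type 1 INs (4857 to 4871), 6649 RPM in type 2 INs (6638 to 6661) and 1763 RPM in type 3 INs (1757 to 1769). In single cells the lowest, median and highest sums were 249, 5877 and 11936 RPM at E18, 824, 4597 and 8808 RPM in P5 type 1, 3144, 5542 and 14665 RPM in P5 type 2, and 323, 1108 and 8397 RPM in P5 type 3. The cells of all groups overlapped, and type 3 INs at P5 had the lowest median. On the scale of read pairs on genes, the pooled sums were 10137 at E18 and 8767, 10931 and 5173 in types 1, 2 and 3 at P5. The order of the pooled sums was thus the same on both scales. By median cell E18 was instead above type 2 INs at P5 on both scales, with 10041 against 9623 relative to read pairs on genes.

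**Figure D2:**
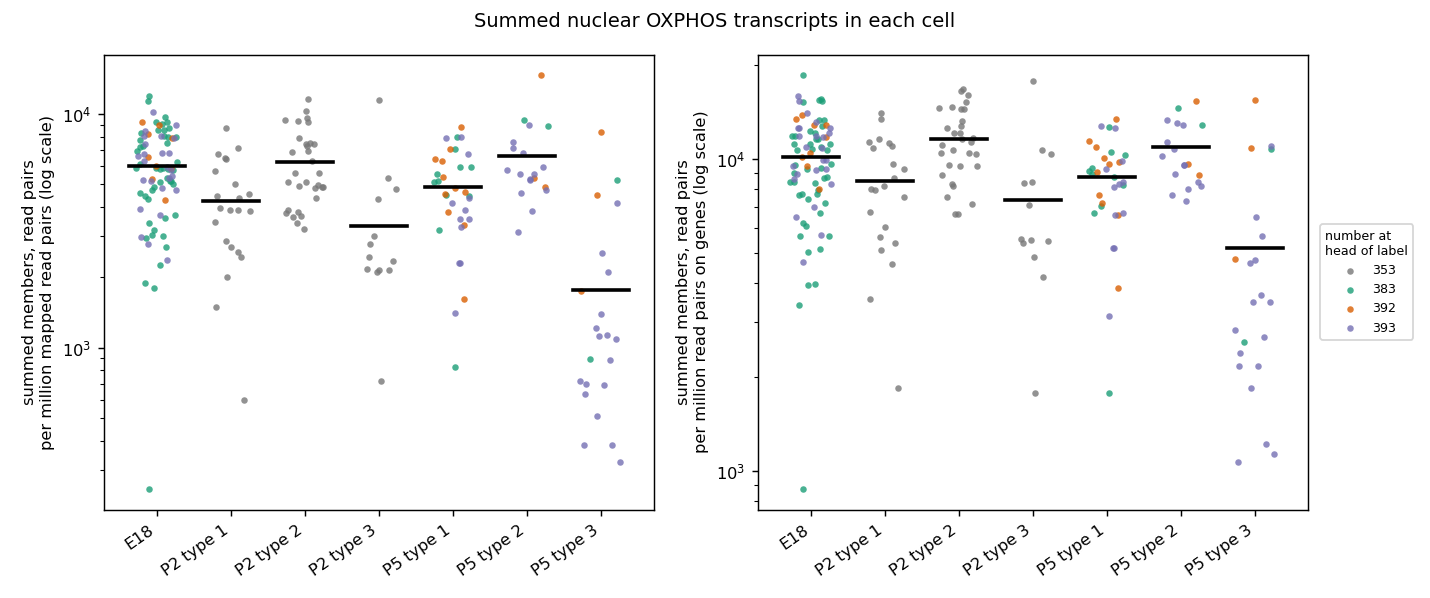
Summed members in each cell (points, coloured by the number at the head of the cell label) by group, relative to mapped read pairs (left) and to read pairs on genes (right), both on a log axis, with the pooled value of the group as a black bar. The cells of P5 type 3 numbered 393 sit mostly below the pooled E18 value, and all cells of P5 type 3 lie within the E18 range on both scales.

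The largest difference in this sum from E18 among the P5 types was in type 3 INs at P5, whose summed members were 3.41-fold lower per mapped read pair (log2 ratio -1.77, interval -1.77 to -1.76) and 1.96-fold lower per read pair on genes. Among members with at least 10 RPM in 1 of the groups, 66 of 78 were more than 2-fold lower and 0 were more than 2-fold higher, with 1 RPM added to both sides. Among all 8753 genes that met the same rule, 50.7% were more than 2-fold lower and 15.7% more than 2-fold higher. The median log2 ratio was -1.96 for members and -1.03 for all genes. Per read pair on genes, which moved the median of all genes to -0.11, the median of members was -1.23. On that scale 46 of 79 members were more than 2-fold lower, against 36.8% of all genes, and 1 was more than 2-fold higher, against 30.5% of all genes.

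The cells of type 3 INs at P5 were unequal by the number in their label. The 17 cells numbered 393 had a pooled sum of 1130 RPM, against 5963 RPM in the 25 E18 cells of the same number, a log2 ratio of -2.40. The 2 cells numbered 383 had 3265 RPM against 5845 RPM (log2 ratio -0.84) and the 3 cells numbered 392 had 4924 RPM against 7063 RPM (log2 ratio -0.52). Per read pair on genes the ratios within the numbers 383, 392 and 393 were -0.33, -0.06 and -1.56, so the ratio was nearest to 0 in the 3 cells numbered 392 and farthest from it in the 17 cells numbered 393. These 5 cells numbered 383 or 392 gave 15.4% and 33.5% of all member read pairs of the group. Read pairs on genes made up 31.7% in the 17 cells numbered 393, 42.3% and 44.3% in the others, and 56.7% in the E18 cells numbered 393. Among cells with less than 50% of read pairs on genes, 21 in type 3 at P5 and 13 at E18, the log2 ratio per mapped read pair was -1.42. This subset holds 21 of 22 type 3 cells and 13 of 82 E18 cells, and the share was not matched between them. The part of this share in the lower sum was not tested.

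The number of members present in a cell differed more evenly. A cell of type 3 at P5 had between 6 and 32 members above 10 RPM with a median of 12, whereas an E18 cell had between 5 and 72 with a median of 42. The medians of type 3 INs were 12.5, 17 and 12 in cells numbered 383, 392 and 393, and those of E18 cells were 37, 46 and 48. Type 3 INs at P5 were thus below E18 within each of the 3 numbers. Over all genes the median number above 10 RPM was 2101.5 in type 3 INs at P5 and 2495.5 at E18, so that members were 0.572% of the genes present in a type 3 cell and 1.63% of those in an E18 cell. In type 1 and type 2 INs at P5 the median cell had 33 and 44 members above 10 RPM. Counted above 10 read pairs per 1000000 on genes, the median was 18 members in type 3 INs at P5 and 46 at E18, or 0.539% and 1.54% of the genes present, although the median number of genes was higher in type 3 INs, 3202 against 2910.

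The share of cells in which a member exceeded 10 RPM had a median over members of 48.8% at E18, 35.3% in P5 type 1, 57.9% in P5 type 2 and 13.6% in P5 type 3. In type 3 INs at P5 the share was below that of E18 for 82 members, equal for 6 and above it for 1, Sdhc. With at least 10 RPM in 1 of the groups it was lower for 77 of 78 members, against 63.8% of 8753 genes, and higher for 1, against 36%. Sdhc had 7 of 22 cells (31.8%) against 25.6%. Ndufc1, a small accessory subunit of complex I, was the single member present in most type 3 cells, with 15 of 22 (68.2%) against 64 of 82 at E18. Its lowest, median and highest levels were 3.36, 22.4 and 173.1 RPM in type 3 INs at P5 and 0.567, 30.7 and 274 RPM at E18. In the cells that did have a member above 10 RPM, its median level had a median over members of 63.2 RPM in type 3 INs at P5 and 81.3 RPM at E18. Type 1 INs at P5 had a lower share than E18 for 81 members and a higher one for 2, and type 2 INs a lower share for 26 and a higher one for 57. Under the same minimum the share in type 1 INs was lower for 76 of 78 members, against 60.9% of all genes, and higher for 2, against 38.8%. In type 2 INs it was higher for 56 of 79 members, against 60.6%, and lower for 23, against 39.2%. With both limits set relative to read pairs on genes, the share in type 3 INs was lower for 75 of 79 members, against 50% of all genes, and higher for 4, against 49.7%. On these limits it was lower for 75 of 79 members in type 1 INs, against 58.9%, and higher for 56 of 80 in type 2 INs, against 60.7%.

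**Figure D3:**
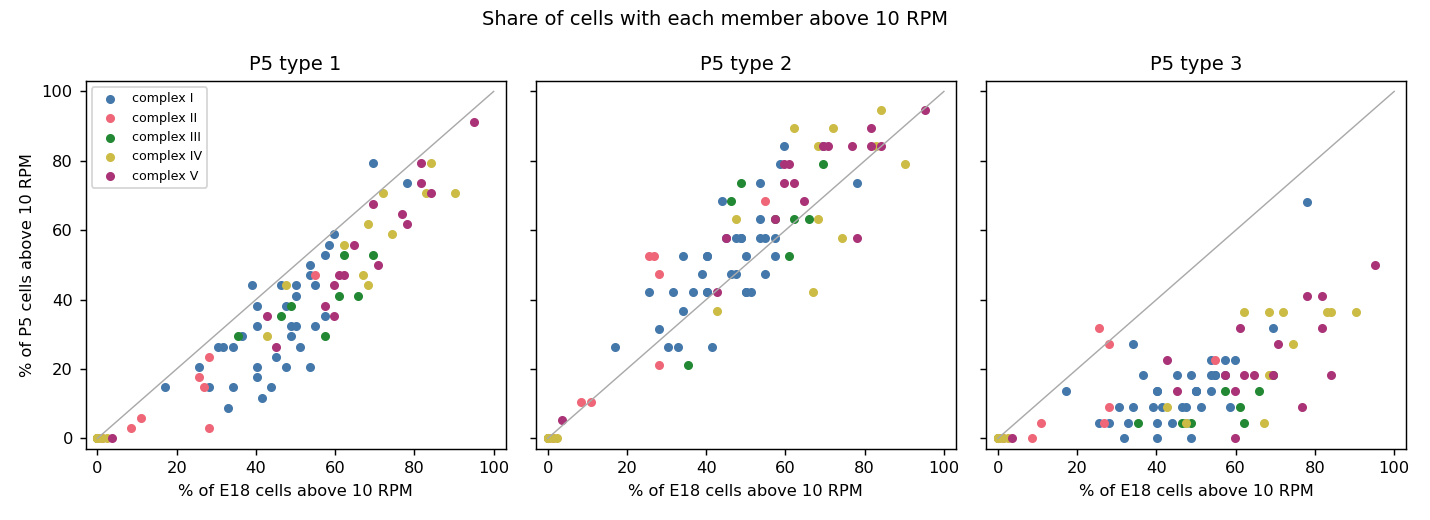
Percent of cells in which each member (point, coloured by complex) exceeded 10 RPM at P5 (vertical axis) against E18 (horizontal axis) for the 3 types, with the line of equal shares. Type 1 points lie mostly a little below the line, type 2 points on both sides of it, and type 3 points mostly far below it, with Sdhc just above it.

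Within complex I, which takes electrons from NADH, the sum was 1846 RPM at E18 and 1563, 2182 and 526 RPM in types 1, 2 and 3 at P5. Ndufa4, which is named for complex I and is known to sit in complex IV, had the highest RPM of the Nduf genes. Its lowest, median and highest levels over cells were 0, 74.4 and 816 RPM at E18, 0, 77.5 and 449.9 RPM in P5 type 1, 0, 111.8 and 559 RPM in P5 type 2, and 0, 0.316 and 274 RPM in P5 type 3. The pooled levels were 116.3, 120.04, 145.9 and 34.3 RPM, so that type 3 INs were below the other groups. Ndufv2, a core subunit of the NADH-oxidizing arm, had 86.2 RPM at E18 and 90.6, 134.9 and 30.7 RPM in types 1, 2 and 3 at P5, and a single type 3 cell gave 80.7% of its read pairs in that group.

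With 1 RPM added to both sides, the members of complex I with the lowest ratios to E18 in type 3 INs at P5 were Ndufa11 and Ndufa9, both accessory subunits. Ndufa11 had 57.9 RPM at E18, with a median of 7.97 and a highest value of 388 RPM, and was above 10 RPM in 40 of 82 cells. In type 3 INs at P5 it had a single read pair in 22 cells, a level 10057-fold lower with a counting interval from 1805-fold to 397220-fold. It had 25.7 RPM in type 1 INs and 63.1 RPM in type 2 INs at P5, so among the P5 types type 3 INs stood far below the others. Ndufa9 had 83.7 RPM at E18 and 0.892 RPM in type 3 INs at P5, with 39 of 82 and 1 of 22 cells above 10 RPM. Ndufa1, a short membrane subunit coded on the X chromosome, had 31.7 RPM at E18, 50.5 and 31.7 RPM in types 1 and 2 at P5, and 0.213 RPM in type 3 INs, where no cell exceeded 10 RPM. Ndufb6 was below 1 RPM in type 3 INs at P5 as well, with 0.0576 RPM. In type 3 INs at P5 16 members were below 1 RPM in all, and all 8 that were below 1 RPM at E18 are among them.

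Ndufb3 and Ndufs6 of complex I had the lowest ratios to E18 in type 1 INs at P5 among subunits with at least 10 RPM in 1 of the groups. Ndufb3 had 21.5 RPM at E18 and 2.77 RPM in type 1 INs (log2 ratio -2.58), with 27 of 82 and 3 of 34 cells above 10 RPM, and had 12.2 and 3.73 RPM in types 2 and 3. Ndufs6 had 44.02 RPM at E18 and 11.99, 19.5 and 3.43 RPM in types 1, 2 and 3 at P5, so that all 3 types were below E18. Of the members, 29 share exon bases with another gene, among them Ndufa11, Ndufa4l2, Ndufb11, Ndufb5, Ndufb6, Ndufs1, Ndufs6, Sdhaf1, Sdhaf2, Sdhaf4, Uqcrc2, Cox4i1, Cox5a, Cox6a2, Atp5a1, Atp5d and Atp5g2 of those named here, and whether counting used strand is not given in the sources used here. Ndufb9, an accessory subunit, was higher in type 1 INs with 93.4 RPM against 64.3 RPM at E18 (log2 ratio 0.53, but -0.44 in cells numbered 392), although a smaller share of cells had it above 10 RPM, 14 of 34 against 41 of 82. Ndufab1, the mitochondrial acyl carrier protein, had 44.4 RPM at E18 and 33.7, 17.6 and 13.9 RPM in types 1, 2 and 3 at P5, and its highest E18 cell had 917 RPM against a median of 13.6. Ndufb7 was, under the same minimum, the complex I member nearest to E18 in type 3 INs, with 39.1 against 41.7 RPM, but in 3 of 22 cells against 41 of 82, and its log2 ratio turned from -0.09 to 0.69 per read pair on genes.

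The 4 subunits of complex II and their assembly factors summed to 376 RPM at E18 and, in the P5 types 1, 2 and 3, to 267, 525 and 239 RPM. Relative to read pairs on genes the complex II sum was 1.11-fold higher in type 3 INs at P5 than at E18, unlike the sums of the other complexes, which were between 1.68-fold (complex IV) and 2.93-fold lower (complex III). Single cells carried much of it. Sdhd, a membrane anchor subunit, had 80.98 RPM in type 3 INs at P5, the most of the P5 types, and all of these read pairs came from 1 cell with 1781 RPM, the median being 0. At E18 it had 64.5 RPM with 22 of 82 cells above 10 RPM, a median of 0.0830 and a highest value of 882 RPM. Sdhb, the iron-sulfur subunit, had 137.9 RPM at E18 and 106.4, 176.9 and 95.8 RPM in types 1, 2 and 3 at P5, with 45 of 82, 16 of 34, 13 of 19 and 5 of 22 cells above 10 RPM. Sdha, the flavoprotein that oxidizes succinate, had 87.6 RPM at E18 and 93.4, 106.6 and 33.6 RPM in types 1, 2 and 3 at P5, and 1 cell gave 91.7% of its read pairs in type 3 INs. Sdhc, the second membrane anchor, had 33.3 RPM at E18 and 16.6, 71.7 and 19.7 RPM in types 1, 2 and 3 at P5. Its median over cells was 31.4 RPM in type 2 INs and 0.943, 0.261 and 2.36 RPM in E18, type 1 and type 3 cells, so by median type 2 INs stood above the rest. Sdhaf2 and Sdhaf3, which attach the flavin and protect the iron-sulfur clusters of the complex, each exceeded 10 RPM in 2 of 19 type 2 cells at P5, which had 37.1 and 37.3 RPM, and 1 cell held 97.5% and 73.1% of these read pairs. In type 1 INs they had 5.50 and 3.00 RPM, against 16.2 and 13.2 RPM at E18, where 9 and 7 of 82 cells exceeded 10 RPM.

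Complex III, which passes electrons from ubiquinol to cytochrome c, was the complex with the lowest level relative to E18 in type 3 INs at P5, 126.8 RPM against 646 RPM (5.10-fold lower). In types 1 and 2 it had 441 and 684 RPM. Uqcrc1 and Uqcrc2 are its core subunits. Uqcrc1 had 179.7 RPM at E18 with a lowest value of 0, a median of 46.8 and a highest value of 2323 RPM, and 94.3, 111.6 and 7.10 RPM in types 1, 2 and 3 at P5. Uqcrc2 had 164.6 RPM at E18 and 106.1, 246 and 18.5 RPM in types 1, 2 and 3 at P5, where 2 of 22 type 3 cells exceeded 10 RPM against 50 of 82 at E18. Uqcrfs1, the Rieske iron-sulfur subunit, had 40.5 RPM at E18, 33.9 RPM in type 1 and 12.2 RPM in type 2 INs at P5 (log2 ratios -0.25 and -1.66). Among members with at least 10 RPM in 1 of the groups it had the lowest ratio to E18 in type 2 INs, and 1 cell held 54.2% of its read pairs there. Uqcrh, the hinge subunit, had 63.97 RPM at E18 and 76.5, 66.9 and 68.5 RPM in types 1, 2 and 3 at P5, but 99.4% of its type 3 read pairs came from 1 cell.

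Complex IV, cytochrome c oxidase, had 1097 RPM at E18, 981 and 979 RPM in types 1 and 2 and 375 RPM in type 3 INs at P5. Cox6a1 exceeded 10 RPM in 69 of the 82 E18 cells and, for the P5 types 1, 2 and 3, in 27 of 34, 18 of 19 and 8 of 22, with medians of 315, 205.4, 251 and 0.458 RPM. Its highest type 3 cell had 1031 RPM, within the E18 range that ends at 1671 RPM. Cox4i1 had medians of 164.2, 68.6, 143.4 and 1.30 RPM in the same groups. Cox5a, a nuclear subunit that lines the matrix side, had 37.9 RPM at E18 and 25.6, 13.9 and 4.26 RPM in types 1, 2 and 3 at P5, with medians of 28.7, 7.44, 5.30 and 0 RPM. Cox5b, another matrix-side subunit, had 39.96 RPM in type 1 INs at P5 against 29.6 RPM at E18 (log2 ratio 0.42, but -0.93 in cells numbered 392) and 1.19 RPM in type 3 INs.

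Complex V, the ATP synthase, had 2038 RPM at E18 and 1612, 2280 and 496 RPM in types 1, 2 and 3 at P5. Atp5a1 and Atp5b form the catalytic head. Atp5b had a lowest, median and highest level of 0.853, 307 and 2002 RPM at E18, 1.00, 206.7 and 1037 RPM in type 1, 3.17, 265 and 1078 RPM in type 2 and 0.813, 10.1 and 710.5 RPM in type 3 INs at P5. Of the type 3 cells, 11 of 22 were above 10 RPM, against 78 of 82 at E18, 31 of 34 in type 1 and 18 of 19 in type 2. Atp5a1 had medians of 282, 227, 396 and 0.212 RPM, again lowest in type 3 INs. Atp5e, the epsilon subunit of the rotor stalk, had 49.3 RPM at E18, 31.6 and 45.7 RPM in types 1 and 2 and 0.225 RPM in type 3 INs at P5, where no cell exceeded 10 RPM. Atp5d, the delta subunit beside it, had 85.8 RPM at E18 and 39.4, 44.2 and 53.8 RPM in types 1, 2 and 3 at P5, with 54.04% of the type 3 read pairs in 1 cell. Atp5s had 12.95 RPM in type 2 INs at P5, all from 1 cell.

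**Figure D4:**
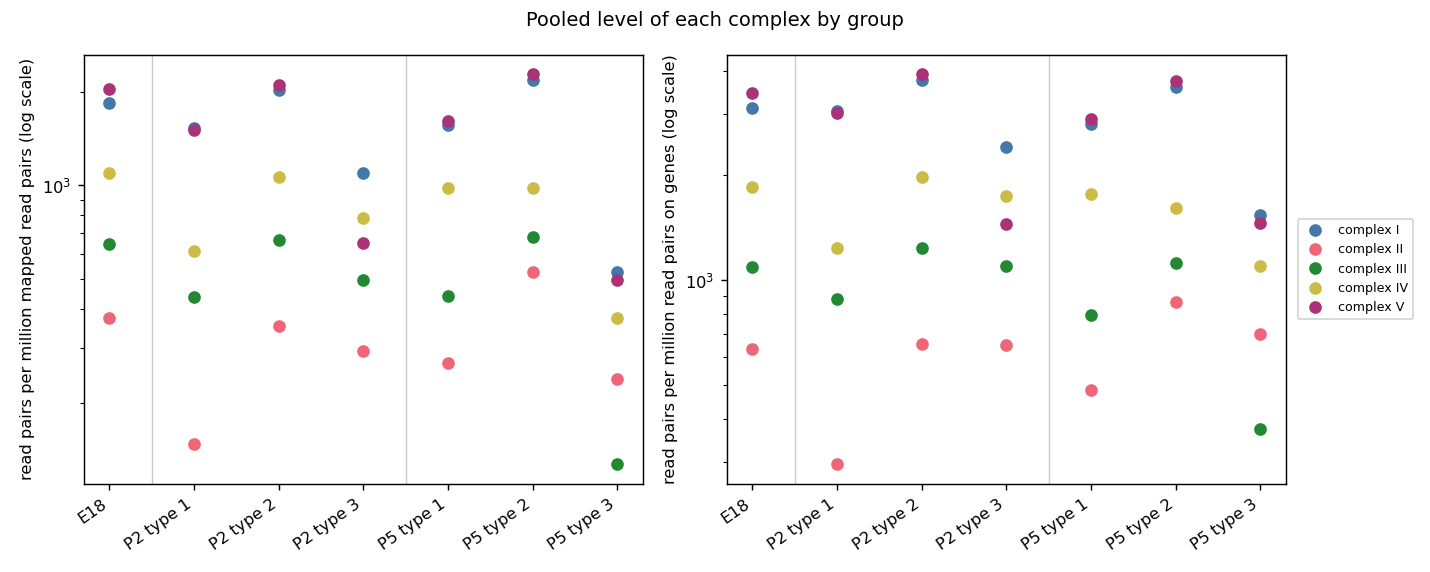
Pooled level of the members of each complex (points, coloured by complex) in the 7 groups, relative to mapped read pairs (left) and to read pairs on genes (right), both on a log axis. At P5 each complex is lowest in type 3 INs on the left, and on the right complex II is not.

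In type 1 INs at P5 the summed members were 1.23-fold lower than at E18 (log2 ratio -0.30), and 11 of 78 members were more than 2-fold lower and 0 more than 2-fold higher. Of all 8709 genes with at least 10 RPM in 1 of the groups, 28.9% were more than 2-fold lower and 17.2% more than 2-fold higher. The median log2 ratio was -0.37 for members and -0.21 for all genes. Of the 11 members 8 are subunits, with Ndufa9, Ndufa11, Uqcrq and Atp5d among them, and the other 3 are the assembly factors Sdhaf2, Sdhaf3 and Sdhaf4. The sum was lower within each of the numbers 383, 392 and 393, by log2 ratios of -0.15, -0.49 and -0.46. It turned to 0.07 with DESeq2 size factors. Under that minimum the largest ratios above E18 were those of Ndufa1 (0.66), Ndufb9 and Cox5b, all under 2-fold, and in cells numbered 392 all 3 were below E18, Ndufa1 with -0.87. A smaller share of members than of all genes was past 2-fold in either direction. Without cells that had markers of another type, all of them E18 cells here, the summed ratio was -0.18 and 6 members were more than 2-fold lower. The markers of astrocytes or radial glia summed to 247.5 RPM in type 1 INs at P5 and 66.8 RPM at E18, with a median over cells of 7.83 RPM in type 1 INs.

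In type 2 INs at P5 the summed members were 1.11-fold those at E18 (log2 ratio 0.15), and 4 of 79 members were more than 2-fold higher and 4 more than 2-fold lower. Of all 8927 genes, 21.8% were more than 2-fold higher and 27.3% more than 2-fold lower, and the median log2 ratio was 0.13 for members and -0.10 for all genes. Those higher were Sdhc, Sdhaf2, Sdhaf3 and Atp5s, and those lower were Ndufab1, Ndufs6, Uqcrfs1 and Cox5a. Sdhaf2 and Atp5s were below E18 once the highest cell of each gene in each group was left out (log2 ratios -2.72 and -1.12). The summed ratio was 0.63, 0.32 and -0.07 in cells numbered 383, 392 and 393, of which type 2 held 2, 3 and 14. Without cells that had markers of another type it was 0.28. The 8 markers of astrocytes or radial glia summed to 1766 RPM in type 2 INs at P5, with a median over cells of 24.3 and a highest value of 16690 RPM, and to 66.8 RPM at E18, and their part in the ratios was not tested beyond this.

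**Figure D5:**
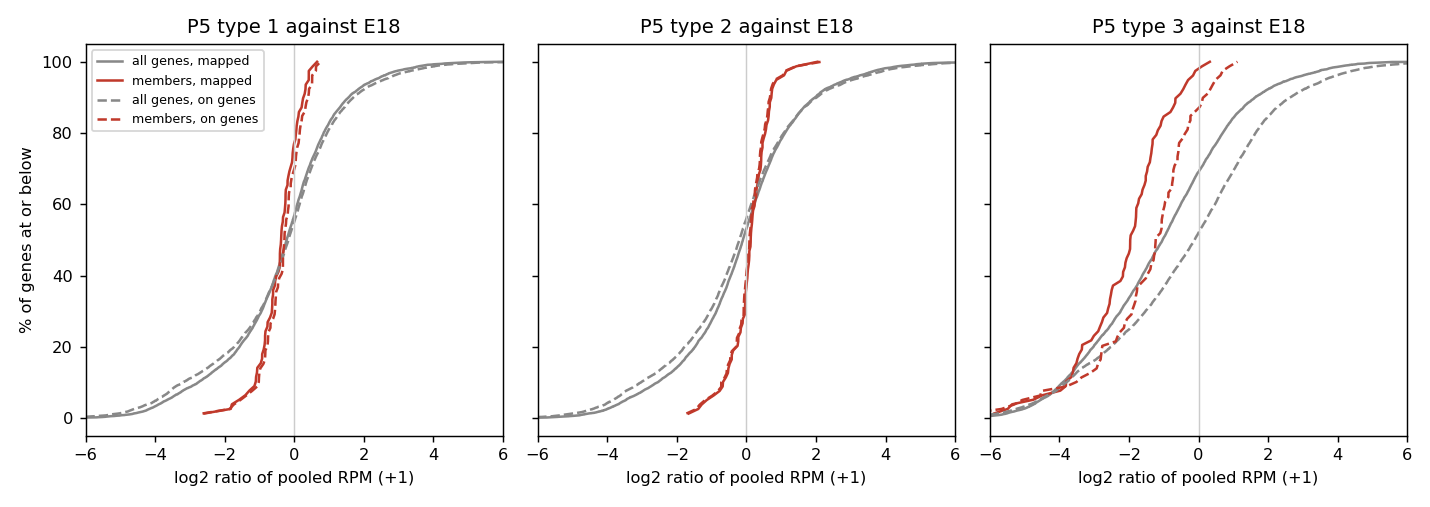
Cumulative percent of genes (vertical axis) by log2 ratio of pooled RPM plus 1 at P5 against E18 (horizontal axis) for members (red) and all genes (grey) with at least 10 RPM in 1 of the groups, relative to mapped read pairs (solid) and read pairs on genes (dashed). The red curves of types 1 and 2 are steep around 0, and that of type 3 lies to the left of the grey curve over most of its length on both scales.

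Among the P5 types, type 2 INs had 1.74-fold more member transcripts than the other 2 types together (log2 ratio 0.80), and 30 of 79 members were more than 2-fold higher, against 30.1% of 8649 genes, and 0 more than 2-fold lower, against 22.2%. The median log2 ratio was 0.78 for members and 0.23 for all genes. The summed ratio was 0.46 per read pair on genes. On that scale 20 of 80 members were more than 2-fold higher, against 23.3% of all genes, and 1 more than 2-fold lower, against 30.7%, so the share of members higher was near that of all genes. Per mapped read pair the summed ratio was above 0 within each of the numbers 383, 392 and 393, with 0.84, 0.82 and 1.11. Of the 30 members higher per mapped read pair, 15 belong to complex I, 4 to complex II, 5 to complex III and 6 to complex V, and none to complex IV. In type 3 INs against the other 2 types, 63 of 76 members were more than 2-fold lower, against 49.1% of 8537 genes, and 0 more than 2-fold higher, against 17.7%. Per read pair on genes these counts were 41 of 79, against 35.2%, and 3, against 32.5%. The 3 were Sdhd, Ndufb7 and Atp5d, above 10 RPM in 1, 3 and 4 of the 22 type 3 cells. In type 1 INs 9 of 76 members were more than 2-fold higher than in the other types, against 27.7% of 8626 genes, and 4 more than 2-fold lower, against 26.5%. Relative to read pairs on genes they were 4 of 80, against 22.5%, and 7, against 32.7%. The 9 were Ndufa1, Ndufab1, Ndufb5, Ndufv1, Uqcrfs1, Cox5a, Cox5b, Cox7a2 and Cox7a2l, and the 4 lower per mapped read pair were Sdhc, Sdhd, Sdhaf2 and Sdhaf3. These 3 comparisons share cells with each other, and those against E18 share the E18 cells. The summed ratio of type 1 INs, 0.18 per mapped read pair, was -0.03 per read pair on genes and -0.38, -0.53 and 0.38 within the numbers 383, 392 and 393.

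At P2 the summed members were 4231 RPM in type 1 INs, 6215 RPM in type 2 INs and 3323 RPM in type 3 INs, the same order as at P5. On the scale of read pairs on genes, they were 8518, 11557 and 7369. The median cell had 27.5, 37 and 11 members above 10 RPM, so type 3 INs had the fewest at both postnatal ages. Over all genes the median number above 10 RPM at P2 was 1834, 2482 and 1437, of which members made up 1.43%, 1.76% and 0.791%. Type 3 at P2 rests on 13 cells, and 1 cell held more than 50% of the read pairs of 35 of the 40 members with at least 10 RPM, against 81.4% of all genes with that level. Atp5c1 had 0.360 RPM against 237 RPM at E18, and members with no read pair could have had up to 0.0360 RPM, the limit of 3 read pairs. Sdha by contrast had 286 RPM, 92.2% of it from 1 cell, and Uqcrc2 had 282 RPM, 88.4% of it from 1 cell. A single cell held more than 50% of the read pairs at P5 for 21 of 43 members in type 3 INs, against 54.9% of all genes, for 4 of 73 in type 1, against 36.6%, and for 7 of 79 in type 2, against 46.1%. At E18 this held for 0 of 78 members, against 10.4%. The share of members was thus near that of all genes in type 3 INs at both ages and below it in the other groups named. Members below 1 RPM numbered 8 at E18, 10, 10 and 29 in types 1, 2 and 3 at P2, and 10, 9 and 16 at P5. Sdhaf1 was in each of these lists with at most 0.652 RPM, and Ndufs8 was in those of P2 types 1 and 3.

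Several subunits of complex IV, and Ndufa4, have a common and a tissue-restricted isoform. Cox6a2, Cox6b2, Cox8b and Ndufa4l2, isoforms of heart and muscle, testis or low oxygen, had no read pair in any cell, which allows up to 0.00143 RPM over all cells. Cox4i2 had 46 read pairs in 2 cells and Cox7b2 48 in 1 cell. Cox7a1, the heart and muscle isoform of subunit 7a, had 694 read pairs in 3 E18 cells, up to 49.1 RPM, and Cox8c, a testis isoform, had 1381 read pairs in a single E18 cell at 247 RPM. Both had no read pair in any postnatal group. Per kilobase, these forms made up 0.878% of Cox7a1 plus Cox7a2 and 1.42% of Cox8c plus Cox8a over all cells. Of the common forms, Cox7a2 had 79.9 RPM at E18 and 81.8, 61.3 and 17.7 RPM in types 1, 2 and 3 at P5, and Cox8a had 70.96 RPM and 59.9, 98.2 and 27.4 RPM. Cox6b1 had 97.3 RPM and 90.7, 72.5 and 36.7 RPM. Cox7b had 64.3 RPM and 37.3, 78.5 and 49.4 RPM, the nearest to E18 in type 3 INs among them. The 7 common forms had a median log2 ratio to E18 of -0.10, -0.23 and -1.56 in types 1, 2 and 3, against -0.21, -0.10 and -1.03 for all genes. In type 3 INs 6 of 7 were more than 2-fold lower, against 50.7% of all genes. The type 3 median was -0.76 per read pair on genes, against -0.11 for all genes. On that scale 2 of 7 were more than 2-fold lower, against 36.8% of all genes.

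The c ring of the ATP synthase is coded by Atp5g1, Atp5g2 and Atp5g3, whose mature proteins are alike and whose targeting peptides differ. Per kilobase, Atp5g3 gave 65.8% of the 3 at E18 and 63.005%, 69.6% and 66.1% in types 1, 2 and 3 at P5. Atp5g1 gave 19.4% at E18 and 21.5%, 13.4% and 17.7% at P5, and Atp5g2 gave 14.8% at E18 and 15.5%, 16.9% and 16.1% at P5. The order of the 3 genes per kilobase was the same at E18 and P5 except in type 2 INs, where Atp5g2 was above Atp5g1. In pooled RPM Atp5g1 was above Atp5g2 in each of these groups, with 53.2 against 22.9 RPM in type 2 INs at P5. The order per kilobase thus rests on the annotated exon lengths, 4912 bases for Atp5g1 and 1675 for Atp5g2. The pooled level of Atp5g3 was 121.6 RPM at E18 and 41.8 RPM in type 3 INs at P5. At P2 Atp5g3 gave 63.9%, 83.4% and 96.3% in types 1, 2 and 3.

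Other genes of energy metabolism, from lists chosen for their role, were compared with E18 in the same way. Per read pair on genes, 36.8% of all genes were more than 2-fold lower and 30.5% more than 2-fold higher in type 3 INs at P5. On that scale 10 of 16 glycolysis genes and 8 of 15 genes of the citric acid cycle were more than 2-fold lower, with medians of -2.68 and -2.23, and 4 and 1 were more than 2-fold higher. The 9 electron carriers, adenine nucleotide exchangers and porins had a median of -0.52 with 2 lower and 0 higher, and 35 assembly factors of the complexes a median of -0.69 with 15 lower and 5 higher. Among 11 regulators of mitochondrial gene expression 4 were lower and 2 higher, with a median of -0.71. The shares lower of the regulators and the assembly factors were thus near that of all genes. In type 1 INs, per mapped read pair, the medians were 0.14 for glycolysis, -0.02 for the citric acid cycle and -1.24 for the regulators, of which 6 of 11 were lower, against 28.9% of all genes, and 1 higher. The last 2 medians were 0.08 and -0.54 per read pair on genes, with 6 of 12 regulators lower, against 29.7% of all genes, and 3 higher. Per mapped read pair, in type 2 INs the 3 medians were 0.20, 0.60 and -0.47. The mitochondrial-genome transcripts had 1 of 9 more than 2-fold higher in type 3 INs at P5 per mapped read pair, 0 lower and a median of 0.32. Relative to read pairs on genes 7 of 10 were more than 2-fold higher and 0 lower, with a median of 1.15, and the ratio of their sum to that of the members was 2.94 in type 3 INs at P5 against 0.723 at E18. The cytoplasmic ribosomal proteins had a median of -1.53 with 60 of 80 lower.

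Across the cells of a group the summed members varied with the share of read pairs on genes, with Pearson's r from 0.64 at E18 to 0.90 in type 3 INs at P5 (Spearman's rho 0.62 and 0.68), and per read pair on genes with r from 0.19 in type 2 INs at P2 to 0.84 in type 3 INs at P5. With the mitochondrial-genome transcripts r was from 0.29 in type 1 INs to 0.78 in type 3 INs at P5. These are descriptions over 13 to 82 cells, and both measures of a cell come from 1 library. Other lists moved with the groups as well. The 10 genes of the dissociation stress list summed to 962 RPM at E18 and, in the P5 types 1, 2 and 3, to 2667, 2928 and 117.6 RPM, with 3 of its genes at 0 in type 3 INs. In E18 cells the 5 MGE interneuron markers summed to 596 RPM and the 7 excitatory neuron markers to 154.1 RPM, and in type 3 INs at P5 to 2.63 and 2.32 RPM. The markers of astrocytes or radial glia summed to 66.8 RPM at E18 and 139.9 RPM in type 3 INs at P5. Their median over type 3 cells was 2.30 RPM and the highest value 1664 RPM. Microglia, endothelial and erythrocyte markers stayed below 9 RPM in sum in every group. The 7 markers of the oligodendrocyte lineage summed to 12.8 RPM at E18 and to 57.7, 141.1 and 23.4 RPM in the P5 types 1, 2 and 3, with medians over cells of at most 2.43 RPM. Without the cells that had at least 3 markers of another cell type, the summed log2 ratio to E18 was -0.18 in type 1 INs and -1.65 in type 3 INs. The part of the stress list in the levels of the members was not tested.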

How the data were processed

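Transcripts were measured in single sorted cells by paired-end sequencing, with no molecular identifiers. The authors mapped the reads to the mouse genome and deposited 1 table of raw counts per gene and cell, and the submitters' processing notes name TopHat2 and HTSeq 0.6.1. The authors' scaling coefficient in each cell's label turned a count into RPM. Counts were summed over the cells of a group, so cells with more read pairs weigh more. Values were set relative to mapped read pairs and, separately, to read pairs on genes. Log2 ratios of pooled RPM had a pseudocount of 1 RPM, and genes with at least 10 RPM in 1 of the groups compared entered counts past 2-fold. Intervals are exact 95% Poisson or binomial intervals, and a count of 0 was read as up to 3 read pairs. PCR copies are not independent molecules. Python 3.11.15 with pandas 2.3.3 and scipy 1.17.1 was used, and alternative scalings came from edgeR 4.0.16 and DESeq2 1.42.0 in R 4.3.3. The calculation was tested on simulated data.

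Each age was 1 pool, so no test was run. The members and gene lists were chosen with earlier results of these data known. Named genes were, per complex, the 2 members of highest RPM, the 3 largest rises and falls of each P5 type against E18 and against the other P5 types, all isoform pairs, the c subunit genes, the complex II subunits, and members below 1 RPM. The types of the cells are the authors' own. No column of cells was left out. No doublet caller was run. Alternatives were other scalings, pseudocounts, minimums and fold limits, leaving out the highest cell, cells of 1 label number, subunits only, and members without shared exon bases.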

Additional observations from a re-analysis of the deposited data

How the results depend on the processing

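Each age was 1 pool and each group 1 sample, so no result has a replicate check, and the intervals cover counting error only. No paired analysis was possible because no group has replicate samples and no test was run. The lower sum of type 3 INs at P5 against E18 kept its sign under every alternative that was run, with log2 ratios from -2.40 to -0.064, whereas against the other P5 types it changed sign in the 3 cells numbered 392 per read pair on genes. Ratios within 383 and 392 rest on 2 and 3 cells of types 2 and 3. The cells with less than 50% of read pairs on genes gave no value for type 2 INs at P5, which has 1 such cell. The causes of these shifts were not tested. Removing cells with markers of other types, keeping cells with few read pairs on genes, the cells of 1 number per read pair on genes, and shares of cells above 10 read pairs per 1000000 on genes were alternatives chosen after seeing the data.

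Per read pair on genes the log2 ratio of the summed members to E18 was -0.21, 0.11 and -0.97 for types 1, 2 and 3. With TMM factors of edgeR the log2 ratio of the summed members to E18 was -0.030, 0.33 and -1.13 for types 1, 2 and 3. With DESeq2 size factors the log2 ratio of the summed members to E18 was 0.065, 0.48 and -1.04 for types 1, 2 and 3. As a mean over cells the log2 ratio of the summed members to E18 was -0.33, 0.10 and -1.71 for types 1, 2 and 3. As a mean of log2 values over cells the log2 ratio of the summed members to E18 was -0.33, 0.16 and -2.16 for types 1, 2 and 3. In cells numbered 383 the log2 ratio of the summed members to E18 was -0.15, 0.63 and -0.84 for types 1, 2 and 3. In cells numbered 392 the log2 ratio of the summed members to E18 was -0.49, 0.32 and -0.52 for types 1, 2 and 3. In cells numbered 393 the log2 ratio of the summed members to E18 was -0.46, -0.073 and -2.40 for types 1, 2 and 3. With subunits only the log2 ratio of the summed members to E18 was -0.29, 0.14 and -1.76 for types 1, 2 and 3. Without members that share exon bases the log2 ratio of the summed members to E18 was -0.30, 0.11 and -1.66 for types 1, 2 and 3. Without cells with markers of other cell types the log2 ratio of the summed members to E18 was -0.18, 0.28 and -1.65 for types 1, 2 and 3. In cells with less than 50% of read pairs on genes the log2 ratio of the summed members to E18 was -0.48 and -1.42 for types 1 and 3. In cells numbered 383 per read pair on genes the log2 ratio of the summed members to E18 was -0.14, 0.46 and -0.33 for types 1, 2 and 3. In cells numbered 392 per read pair on genes the log2 ratio of the summed members to E18 was -0.35, 0.10 and -0.064 for types 1, 2 and 3. In cells numbered 393 per read pair on genes the log2 ratio of the summed members to E18 was -0.33, -0.085 and -1.56 for types 1, 2 and 3. Without the highest cell of each group the log2 ratio of the summed members to E18 was 0.041 and -2.02 for types 2 and 3.

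Per read pair on genes the log2 ratio of the summed members to the other P5 types was -0.029, 0.46 and -0.89 for types 1, 2 and 3. With TMM factors of edgeR the log2 ratio of the summed members to the other P5 types was 0.22, 0.72 and -1.15 for types 1, 2 and 3. With DESeq2 size factors the log2 ratio of the summed members to the other P5 types was 0.25, 0.81 and -1.16 for types 1, 2 and 3. As a mean over cells the log2 ratio of the summed members to the other P5 types was 0.27, 0.83 and -1.55 for types 1, 2 and 3. As a mean of log2 values over cells the log2 ratio of the summed members to the other P5 types was 0.75, 1.21 and -2.002 for types 1, 2 and 3. Without the highest cell of each group the log2 ratio of the summed members to the other P5 types was 0.29, 0.69 and -1.85 for types 1, 2 and 3. In cells numbered 383 the log2 ratio of the summed members to the other P5 types was -0.38, 0.84 and -0.86 for types 1, 2 and 3. In cells numbered 392 the log2 ratio of the summed members to the other P5 types was -0.53, 0.82 and -0.25 for types 1, 2 and 3. In cells numbered 393 the log2 ratio of the summed members to the other P5 types was 0.38, 1.11 and -2.15 for types 1, 2 and 3. With subunits only the log2 ratio of the summed members to the other P5 types was 0.20, 0.78 and -1.63 for types 1, 2 and 3. Without members that share exon bases the log2 ratio of the summed members to the other P5 types was 0.20, 0.73 and -1.52 for types 1, 2 and 3. Without cells with markers of other cell types the log2 ratio of the summed members to the other P5 types was 0.28, 0.81 and -1.62 for types 1, 2 and 3. In cells with less than 50% of read pairs on genes the log2 ratio of the summed members to the other P5 types was 0.86 and -0.95 for types 1 and 3. In cells numbered 383 per read pair on genes the log2 ratio of the summed members to the other P5 types was -0.42, 0.62 and -0.33 for types 1, 2 and 3. In cells numbered 392 per read pair on genes the log2 ratio of the summed members to the other P5 types was -0.41, 0.42 and 0.15 for types 1, 2 and 3. In cells numbered 393 per read pair on genes the log2 ratio of the summed members to the other P5 types was 0.15, 0.63 and -1.37 for types 1, 2 and 3.

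Counts are listed where the larger of the 2 was more than 1.5 times the smaller, or where only 1 of them was 0. Smaller changes are left out. Per read pair on genes 66 became 46 for type 3 against E18, and 30 became 20 for type 2 against the other P5 types. Except on that scale, no share over all genes was computed, so these counts are not results about the members. A minimum of 50 RPM also left fewer members to count. For type 1, the 0 members more than 2-fold higher than at E18 became 1 at 1.5-fold, 1 with DESeq2 size factors, 3 in cells numbered 383, 6 in cells numbered 392, 3 in cells numbered 393 and 3 in cells with less than 50% of read pairs on genes. For type 1, the 11 members more than 2-fold lower than at E18 became 3 with a pseudocount of 10 RPM, 5 with a minimum of 50 RPM, 28 at 1.5-fold, 6 with TMM factors of edgeR, 5 with DESeq2 size factors, 20 in cells numbered 383, 27 in cells numbered 392, 25 in cells numbered 393, 19 without the highest cell of each gene, 6 without cells with markers of other cell types and 24 in cells with less than 50% of read pairs on genes. For type 2, the 4 members more than 2-fold higher than at E18 became 1 with a pseudocount of 10 RPM, 1 with a minimum of 50 RPM, 14 at 1.5-fold, 10 with DESeq2 size factors, 19 in cells numbered 383, 21 in cells numbered 392, 1 without the highest cell of each gene and 7 without cells with markers of other cell types. For type 2, the 4 members more than 2-fold lower than at E18 became 2 with a pseudocount of 10 RPM, 0 with a minimum of 50 RPM, 9 at 1.5-fold, 2 with DESeq2 size factors, 25 in cells numbered 383, 17 in cells numbered 392, 12 in cells numbered 393, 7 without the highest cell of each gene and 2 without cells with markers of other cell types. For type 3, the 0 members more than 2-fold higher than at E18 became 1 per read pair on genes, 1 with DESeq2 size factors, 5 in cells numbered 383, 11 in cells numbered 392 and 4 in cells with less than 50% of read pairs on genes. For type 3, the 66 members more than 2-fold lower than at E18 became 36 with a minimum of 50 RPM. For type 1, the 9 members more than 2-fold higher than in the other P5 types became 2 with a pseudocount of 10 RPM, 5 with a minimum of 50 RPM, 14 at 1.5-fold, 4 per read pair on genes, 19 in cells numbered 383, 17 in cells numbered 393 and 37 in cells with less than 50% of read pairs on genes. For type 1, the 4 members more than 2-fold lower than in the other P5 types became 1 with a minimum of 50 RPM, 8 at 1.5-fold, 7 per read pair on genes, 21 in cells numbered 383, 23 in cells numbered 392, 7 in cells numbered 393, 2 without the highest cell of each gene and 9 in cells with less than 50% of read pairs on genes. For type 2, the 30 members more than 2-fold higher than in the other P5 types became 52 at 1.5-fold. For type 2, the 0 members more than 2-fold lower than in the other P5 types became 2 at 1.5-fold, 1 per read pair on genes, 18 in cells numbered 383, 12 in cells numbered 392, 3 in cells numbered 393, 1 without the highest cell of each gene and 1 without cells with markers of other cell types. For type 3, the 0 members more than 2-fold higher than in the other P5 types became 1 at 1.5-fold, 3 per read pair on genes, 1 with TMM factors of edgeR, 1 with DESeq2 size factors, 5 in cells numbered 383, 10 in cells numbered 392 and 6 in cells with less than 50% of read pairs on genes. For type 3, the 63 members more than 2-fold lower than in the other P5 types became 34 with a minimum of 50 RPM, 41 per read pair on genes and 38 in cells with less than 50% of read pairs on genes.

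Named members whose log2 ratio changed sign under an alternative follow. Sdhaf3 in P5 type 1 against E18 turned from -1.82 to 0.0070 in cells numbered 392. Ndufa1 in P5 type 1 against E18 turned from 0.66 to -0.87 in cells numbered 392. Ndufb9 in P5 type 1 against E18 turned from 0.53 to -0.44 in cells numbered 392. Cox5b in P5 type 1 against E18 turned from 0.42 to -0.93 in cells numbered 392 and -0.058 in cells with less than 50% of read pairs on genes. Uqcrfs1 in P5 type 2 against E18 turned from -1.66 to 0.13 in cells numbered 392. Ndufab1 in P5 type 2 against E18 turned from -1.28 to 0.18 in cells numbered 392. Atp5s in P5 type 2 against E18 turned from 2.04 to -0.99 in cells numbered 383, -0.73 in cells numbered 392 and -1.12 without the highest cell of each gene. Sdhaf3 in P5 type 2 against E18 turned from 1.44 to -4.03 in cells numbered 383. Sdhaf2 in P5 type 2 against E18 turned from 1.15 to -3.17 in cells numbered 383, -4.75 in cells numbered 393 and -2.72 without the highest cell of each gene. Sdhd in P5 type 3 against E18 turned from 0.32 to -6.24 in cells numbered 392, -5.92 in cells numbered 393 and -5.82 without the highest cell of each gene. Uqcrh in P5 type 3 against E18 turned from 0.10 to -5.66 in cells numbered 383, -5.72 in cells numbered 393, -5.36 without the highest cell of each gene and -4.97 in cells with less than 50% of read pairs on genes. Ndufb7 in P5 type 3 against E18 turned from -0.094 to 0.69 per read pair on genes, 0.53 with TMM factors of edgeR, 0.62 with DESeq2 size factors, 2.26 in cells numbered 392 and 0.12 without cells with markers of other cell types. Sdhaf3 in P5 type 1 against the other P5 types turned from -2.34 to 0.27 in cells numbered 393. Sdhaf2 in P5 type 1 against the other P5 types turned from -1.81 to 1.85 in cells numbered 393. Sdhc in P5 type 1 against the other P5 types turned from -1.43 to 2.98 in cells numbered 383 and 0.83 in cells numbered 392. Uqcrfs1 in P5 type 1 against the other P5 types turned from 2.05 to -0.70 in cells numbered 383. Ndufa1 in P5 type 1 against the other P5 types turned from 1.56 to -0.46 in cells numbered 392. Uqcrfs1 in P5 type 2 against the other P5 types turned from -0.89 to 1.51 in cells numbered 383 and 0.32 in cells numbered 392. Ndufab1 in P5 type 2 against the other P5 types turned from -0.59 to 0.24 in cells numbered 392 and 0.56 in cells numbered 393. Cox5a in P5 type 2 against the other P5 types turned from -0.39 to 0.59 in cells numbered 392. Atp5s in P5 type 2 against the other P5 types turned from 3.69 to -0.34 in cells numbered 392 and -0.017 without the highest cell of each gene. Sdhaf2 in P5 type 2 against the other P5 types turned from 2.55 to -3.47 in cells numbered 393 and -0.93 without the highest cell of each gene. Sdhd in P5 type 3 against the other P5 types turned from 0.75 to -5.19 in cells numbered 392, -5.85 in cells numbered 393 and -5.46 without the highest cell of each gene. Ndufb7 in P5 type 3 against the other P5 types turned from 0.49 to -4.52 in cells numbered 383, -0.98 in cells numbered 393, -0.092 without the highest cell of each gene and -0.37 in cells with less than 50% of read pairs on genes. Atp5d in P5 type 3 against the other P5 types turned from 0.38 to -2.46 in cells numbered 392, -0.23 in cells numbered 393 and -0.42 without the highest cell of each gene.

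E18 had a median share of cells of 75.6% with at least 1 read pair, 64.6% above 1 RPM and 31.7% above 50 RPM. P2 type 1 had a median share of cells of 54.5% with at least 1 read pair. P2 type 2 had a median share of cells of 77.4% with at least 1 read pair and 64.5% above 1 RPM. P2 type 3 had a median share of cells of 0% above 50 RPM. P5 type 1 had a median share of cells of 64.7% with at least 1 read pair. P5 type 2 had a median share of cells of 84.2% with at least 1 read pair. P5 type 3 had a median share of cells of 36.4% with at least 1 read pair. Relative to read pairs on genes the relation of the summed members was 0.28 with the share of read pairs on genes in E18, 0.19 with the share of read pairs on genes in P2 type 2, 0.61 with the share of read pairs on genes in P5 type 1 and 0.54 with the share of read pairs on genes in P5 type 2. As Spearman's rho the relation of the summed members was 0.23 with the mitochondrial-genome transcripts in P2 type 3, 0.57 with the share of read pairs on genes in P2 type 3, 0.66 with the share of read pairs on genes in P5 type 2 and 0.68 with the share of read pairs on genes in P5 type 3.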
